A study of Mus musculus with 23 samples.

Results

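Mice that lack PXR, the pregnane X receptor encoded by *Nr1i2*, were given pregnenolone 16α-carbonitrile (PCN), the ligand of that receptor, to ask which genes of the ileum change when it is absent. The comparison was of 6 arrays of *Pxr*-/- PCN with 6 arrays of *Pxr*-/- CONT, taken by their group labels from the 23 arrays of the series, over all probes. The other 11 arrays, 6 of WT CONT and 5 of WT PCN, were used to see whether the same genes responded where the receptor was present. All mice were male and of C57Bl6/J background. PCN was injected into the abdominal cavity at 100 mg/kg in corn oil, once a day on 4 days, and CONT mice of both genotypes received the oil by the same route, so injection and oil were shared by all groups. The ileum was taken at ZT 6 (ZT 0 is lights on), when 6 h had passed since the last dose. Mice had free access to food, and their state at that hour is given as fed in the labels and as semi-fasted by the study. WT mice were purchased at 6 weeks of age and *Pxr*-/- mice had been bred in house for 10 years, and all were acclimatized for 2 weeks. Genotype and origin therefore cannot be told apart in any contrast between *Pxr*-/- and WT, whereas the effect of PCN was measured within each genotype.

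PXR is a nuclear receptor that binds bile acids, steroids and drugs and switches on genes for their oxidation, conjugation and export. In the ileum it is expressed in the epithelium, which absorbs bile acids and cholesterol and renews itself from stem cells in the crypts. The wall below the epithelium holds fibroblasts, smooth muscle, vessels, macrophages and mast cells, and neutrophils enter it from the blood during inflammation. All these cells were measured together here, so a larger number of cells of a type and more RNA per cell cannot be told apart.

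The 12 arrays were similar in quality. The signal per array ranged from 74 to 106.5 (median over spots, linear), 61.5% to 67.3% of their probes were well above background, no more than 2 probes were saturated, and arrays of the same group correlated at a median of 0.990 to 0.993 over probes. Each group had 3 arrays in each of 2 wash batches. The 14 epithelial markers tested and all 6 markers of ileal enterocytes (among them *Fabp6*, *Slc10a2* and *Fgf15*) were above background on all 12 arrays. The labels allocate 6 mice to a group and number its arrays as replicates, and the p-values measure the spread between these arrays.

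The probe for *Nr1i2*, the deleted gene, was above background on all 12 arrays, at 11.42 to 12.27 (log2 signal, median 11.66) in *Pxr*-/- CONT and at 11.38 to 11.90 (median 11.74) in *Pxr*-/- PCN, and its ranges in both genotypes overlapped, so it does not check the genotype labels. The classical targets of the receptor did differ between genotypes. *Cyp3a11*, a cytochrome P450 that oxidizes drugs and bile acids, changed by -0.05 on the log2 scale (standard error, SE, 0.305; adjusted p 0.947) in *Pxr*-/- mice and by 3.53 in WT (adjusted p 1.21e-06). The corresponding changes of *Cyp2b10* were 0.72 (adjusted p 0.25) and 4.61 (adjusted p 9.52e-08), and both genes passed the test of the difference between genotypes (adjusted p 0.000875 for each). Of 24 xenobiotic genes tested, 20 were called higher with PCN in WT and 2 in *Pxr*-/- mice, where the drug exporters *Abcb1a* (1.07, adjusted p 0.00138) and *Abcb1b* (0.95, adjusted p 0.00331) rose. *Cyp2c55* moved by 1.58 without passing the test (adjusted p 0.0502), and its values with PCN, 6.84 to 9.91, overlapped those of CONT, 6.46 to 7.69.

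PCN replicates 1 and 5 stood apart from the other *Pxr*-/- arrays in lymphoid genes. The score of a gene list on an array, used here and below, is the median over its members of the log2 signal minus the CONT mean. The B cell and Peyer patch score (9 genes) was 1.52 on *Pxr*-/- PCN replicate 1 and -0.10 to 0.45 on the other 5 PCN arrays, and the T and cytotoxic lymphocyte score (13 genes) was -1.24 on replicate 5 and -0.33 to 0.01 on the others. The same arrays were also the highest of their group for several myeloid genes. Counts are therefore given below with all arrays and also without these 2, a choice made after the values were seen, which leaves 4 PCN arrays.

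PCN changed 261 of 17727 genes tested in *Pxr*-/- ileum (1.47%), 212 of them higher (1.20%) and 49 lower (0.276%), at an adjusted p of at most 0.05 (limma, Benjamini-Hochberg) and a fold change above 1.5, which is what "called" means below. Without the fold threshold the counts were 568 higher (3.20%) and 318 lower (1.79%). The median change over all genes was 0.00, and 50.1% of genes had a change above 0 and 49.9% one under 0. Within each wash batch all 261 genes changed in the same direction, and on all 4 slides that held both groups 249 did. The genes were called from these same arrays, which favours such agreement, so it is not a separate check. Without PCN replicates 1 and 5, 99 genes were called, 91 higher and 8 lower, and 91 of the 99 were among the 261.

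Most of these genes had the same direction in WT, where other mice were compared. PCN called 165 genes higher (0.931%) and 21 lower (0.118%) in WT, and 43.9% of all genes had a change above 0 there. Of the 212 genes that rose in *Pxr*-/- mice, 205 had a change above 0 in WT, and of the 49 that fell, 43 had one under 0. A total of 88 were called in both genotypes in the same direction, which is 33.7% of the *Pxr*-/- calls and 47.3% of the WT calls. The genes that rose had a median change of 0.81 in *Pxr*-/- mice and 0.61 in WT, and those that fell had -0.82 and -0.38. These genes were chosen by their change in *Pxr*-/- mice, which favours larger values there than in WT. The test of the difference between the 2 effects called 21 genes (0.118%), in 20 of which the effect was lower in *Pxr*-/- mice, and none of these 21 was among the 261. At an unadjusted p of at most 0.05 the effects differed for 897 genes (5.06%).

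**Figure D1:**
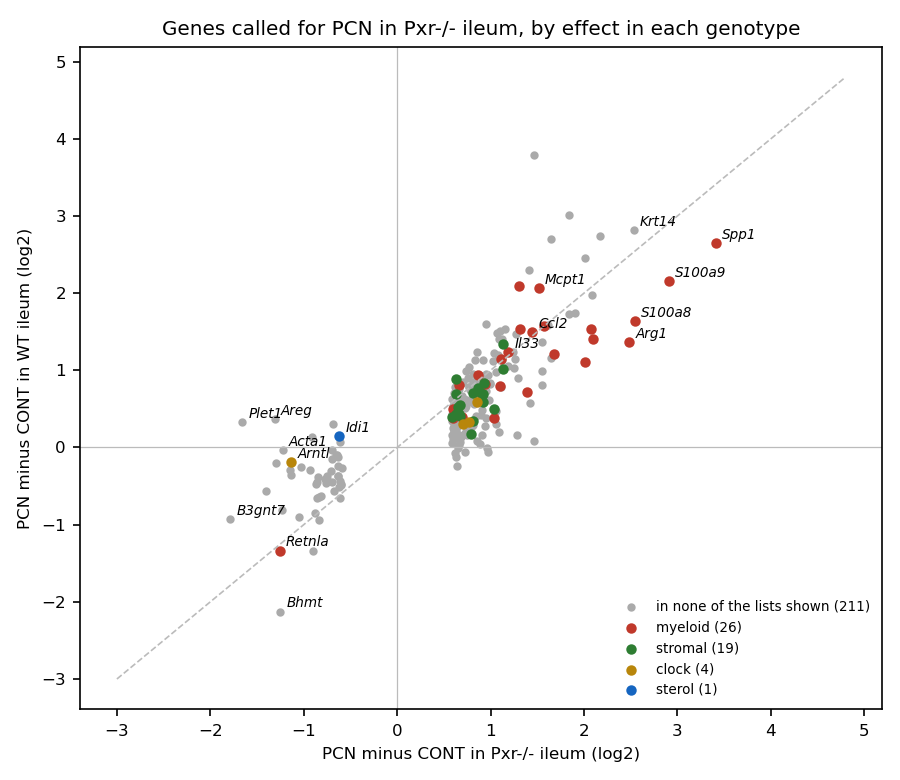
The 261 genes called for PCN in *Pxr*-/- ileum, each point 1 gene, with the log2 change in *Pxr*-/- mice on the horizontal axis (6 PCN against 6 CONT arrays) and in WT on the vertical axis (5 against 6). Colours mark the myeloid (26), stromal (19), clock (4) and sterol (1) genes; the horizontal values chose the genes, the dashed line marks equal effects, and *Spp1*, *S100a9* and *Krt14* lie far up in both genotypes while *Idi1*, *Plet1* and *Areg* lie below 0 in *Pxr*-/- mice and above it in WT.

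Lists of myeloid, stromal, proliferation, clock and sterol genes were drawn up with earlier results of these data known. Of these, the myeloid lists had the most calls. They include chemokines and cytokines that other cells make too, such as *Il33* of stromal and epithelial nuclei. Of 86 tested, 25 were called higher (against 1.20% of all genes) and 1 lower (against 0.276%). All 26 had the same direction in WT, where 14 were called too. Of the 86, 11 passed the background filter through the PCN groups of either genotype alone. That way of entry favours a rise with PCN, and 5 of the 11 were called higher. Without the 11 genes, 20 of 75 were called higher and 1 lower. The genes with the largest change in the whole comparison, *Spp1*, *S100a9* and *S100a8*, belong here. *Spp1* codes for osteopontin, a matrix-bound cytokine made by activated macrophages. Its log2 signal was 5.27 to 6.04 (median 5.68) in CONT, where it was above background on 4 of 6 arrays. With PCN 4 arrays lay between 7.46 and 8.15, and replicates 1 and 5 lay at 11.11 and 12.31. The groups did not overlap. The difference was 3.41 (SE 0.70, adjusted p 0.0104, 10.6-fold) with all arrays and 2.28 (adjusted p 0.114) without these 2, and the call was lost. With other processing or single arrays left out it ranged from 2.85 to 4.50.

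The neutrophil list showed 8 of 22 tested genes called higher and none lower. Changes were above 0 in 16 and under 0 in 6, with a median of 0.30 (0.20 in batch 1 and 0.50 in batch 2). In 6 of the 22 all PCN arrays lay above all CONT arrays (1.91% of all genes). Of the 22, 5 passed the background filter through PCN groups alone, which favours a rise with PCN. *S100a9* and *S100a8* code for the subunits of calprotectin, the most abundant protein of the neutrophil cytosol. *S100a9* was at 6.88 to 8.47 (median 7.59) in CONT and at 9.12 to 12.46 (median 10.48) with PCN, a difference of 2.91 (SE 0.44, adjusted p 0.00105, 7.51-fold). *S100a8* was at 5.83 to 6.73 in CONT and 7.38 to 10.26 with PCN (2.54, adjusted p 0.00098). Neither gene's groups overlapped, and both kept the call without replicates 1 and 5, at 2.30 and 2.02. The lectin receptors *Clec4d* and *Clec4e*, which sense mycobacterial glycolipids and dying cells, rose as well. *Clec4d* was at 4.94 to 5.69 in CONT and 5.96 to 9.40 with PCN (2.10, adjusted p 0.0133), with replicates 1 and 5 highest at 9.03 and 9.40. It was above background on 2 of 6 CONT arrays. With other processing or single arrays left out its change ranged from 1.56 to 3.57. *Clec4e* was not well above background on any CONT array and was above it on all 6 PCN arrays, at least 3.51-fold higher (adjusted p 0.013). Without replicates 1 and 5 neither was called, *Clec4d* being at 1.28 (adjusted p 0.132) and *Clec4e* at 1.12 (adjusted p 0.0738). On the other hand *Ly6g*, the surface protein that defines mouse neutrophils, was above background on all 12 arrays and did not pass the test, at 7.23 to 7.71 in CONT and 6.87 to 7.57 with PCN (-0.23, adjusted p 0.247). Without replicates 1 and 5, 2 neutrophil genes were called.

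Monocyte and macrophage genes (32 tested) had 6 calls higher and 1 lower, 28 changes above 0 and a median change of 0.35, similar in wash batch 1 (0.38) and batch 2 (0.32). The list score was -0.18 to 0.21 on CONT arrays and 0.22 to 0.48 on PCN arrays. *Trem2*, a lipid receptor of phagocytes, was at 6.87 to 7.604 (median 7.26) in CONT and 8.38 to 10.15 (median 8.65) with PCN (chromosome 17, 48491537 to 48491596, mm9). It rose by 1.68 (SE 0.26, adjusted p 0.0014) and by 1.21 in WT (adjusted p 0.0254). *Arg1* codes for arginase, which competes with nitric oxide synthase for arginine. It was at 5.40 to 6.02 in CONT and, with PCN, at 6.53 to 8.07 on 4 arrays and at 9.63 and 9.84 on replicates 1 and 5 (chromosome 10, 24636194 to 24636253). Its change was 2.48 (adjusted p 0.012), and 1.80 without these 2 arrays (adjusted p 0.14). *Chil3*, a chitinase-like protein of alternatively activated macrophages, was at 5.11 to 6.27 in CONT and, with PCN, at 6.70 to 7.17 on 4 arrays and at 9.11 and 9.28 on replicates 1 and 5. Its change was 2.08 (adjusted p 0.00693), and 1.38 without these 2 arrays (adjusted p 0.074), where the call was lost. In CONT *Arg1* was above background on 4 of 6 arrays and *Chil3* on 3 of 6. With other processing or single arrays left out their changes ranged from 1.99 to 3.53 and from 1.63 to 3.44.

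General macrophage genes moved less. *Cd68*, a lysosomal protein of all macrophages, rose from 9.40 to 10.03 in CONT to 9.95 to 10.61 with PCN, with a small overlap and a change of 0.60 (adjusted p 0.00716) that lay just above the fold threshold. *Csf1r*, the receptor for the macrophage growth factor, changed by 0.31 (adjusted p 0.0312, below the fold threshold), and *Adgre1*, a surface receptor of tissue macrophages, by 0.38 (adjusted p 0.163). The 1 gene of the list that fell was *Retnla*, a resistin-like protein induced by type-2 cytokines. It was at 8.35 to 9.77 (median 8.99) in CONT and 7.02 to 8.54 (median 7.79) with PCN, a change of -1.26 (SE 0.30, adjusted p 0.0215) that was -1.34 in WT (adjusted p 0.0297). Without replicates 1 and 5 the list had 2 calls higher and none lower, *Retnla* being at -1.14 (adjusted p 0.124).

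Chemokines and cytokines had the highest list median, 0.68. Of 21 tested, 8 were called higher (against 1.20% of all genes) and 0 lower. All PCN arrays lay above all CONT arrays in 9 (against 1.91%). In WT 7 were called higher, with a median of 0.66. *Ccl2*, which draws monocytes out of the blood, was at 7.70 to 8.72 (median 8.25) in CONT and 9.38 to 10.13 (median 9.67) with PCN (chromosome 11, 81850650 to 81850709). The 6 PCN arrays lay close together and apart from CONT, with a change of 1.45 (SE 0.25, adjusted p 0.00309) against 1.497 in WT. *Il33*, an alarmin of stromal and epithelial nuclei, went from 7.72 to 8.77 in CONT to 9.23 to 9.94 with PCN (1.19, SE 0.14, adjusted p 0.000103; 1.23 in WT; chromosome 19, 30035101 to 30035160). The neutrophil chemokine *Cxcl5* was at 5.70 to 7.97 in CONT and 8.42 to 8.89 with PCN, and rose by 1.57 (adjusted p 0.0095). *Ccl24*, which draws eosinophils, rose by 1.32 (adjusted p 0.0103). In contrast to *Spp1*, *Arg1* and *Chil3*, *Ccl2* and *Il33* were not highest on replicates 1 and 5, and both kept the call without them, at 1.503 and 1.38. *Cxcl5* (1.53, adjusted p 0.0727) and *Ccl24* (1.04, adjusted p 0.123) did not, and 5 of the 21 were called without these arrays. The chemokine and cytokine score itself was highest on replicates 1 and 5, at 0.82 and 0.79, against 0.30 to 0.74 on the other PCN arrays. *Il1b* did not pass the test (0.61, adjusted p 0.11).

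Genes of eosinophils and mast cells (11 tested, of which 4 passed the filter through PCN groups alone) had 3 calls higher, all mast cell proteases. *Mcpt1*, a protease of mucosal mast cells, was at 6.42 to 8.47 in CONT and 8.80 to 10.095 with PCN (1.51, adjusted p 0.0218), with 2 CONT arrays far below the other 4. *Mcpt4* changed by 1.31 (adjusted p 0.0325) and *Mcpt2*, above background on 3 of 6 CONT arrays, by 0.87 (adjusted p 0.0072). All 3 were called in WT. *Cpa3*, carboxypeptidase A of mast cells, did not pass the test (0.70, adjusted p 0.103). Without replicate 1 or without replicate 5 of PCN 1 of these 3 calls was left, and without both none was.

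**Figure D2:**
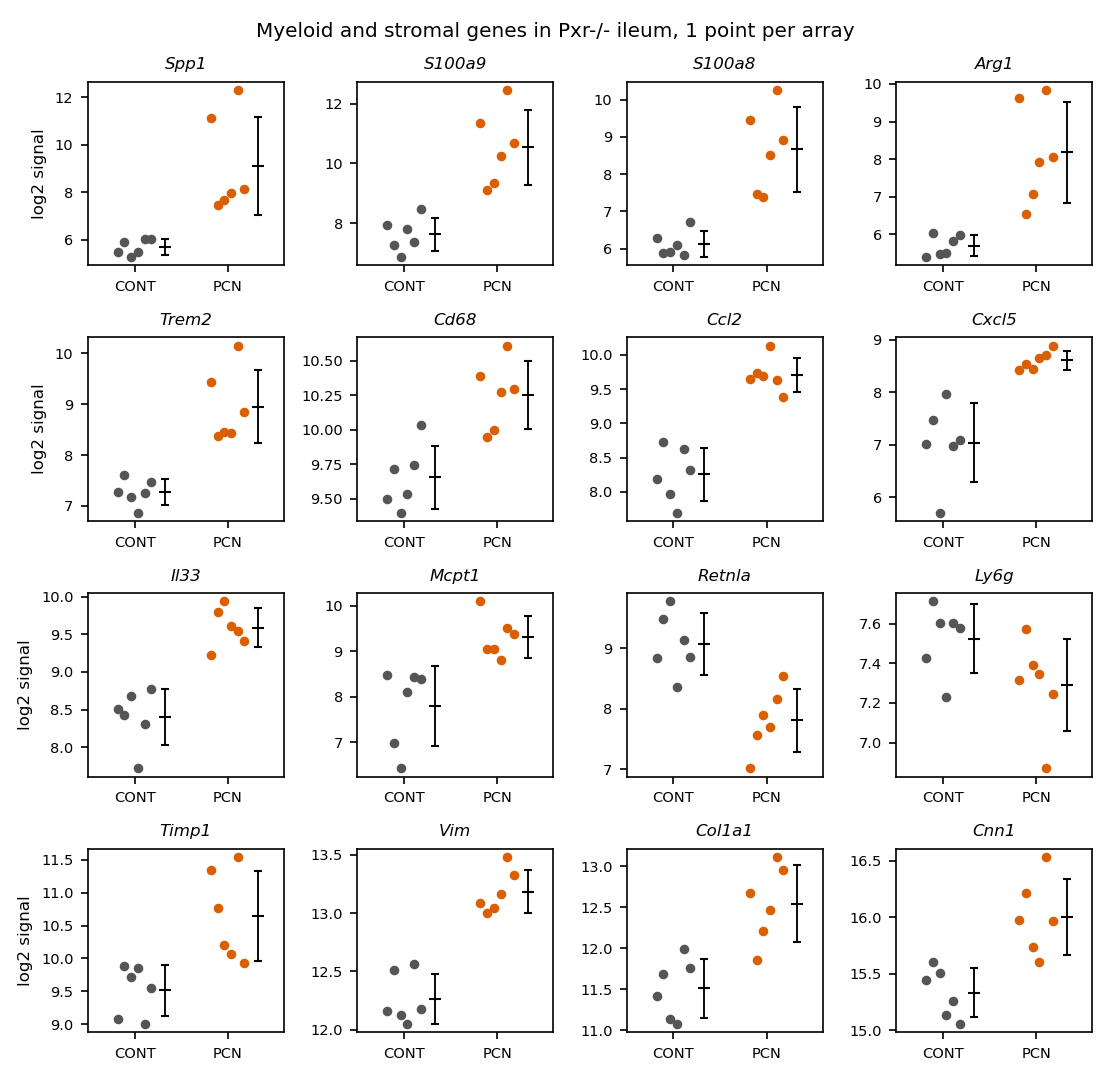
Log2 signal of 12 myeloid and cytokine genes and 4 stromal genes on each *Pxr*-/- array, CONT in grey and PCN in orange, 1 point per array with mean ± SD beside it (n = 6 per group). *Ccl2*, *Il33* and *Vim* form tight and separate groups, whereas *Spp1*, *Arg1* and *Trem2* have 2 PCN arrays well above the other 4, and *Ly6g* overlaps between groups.

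Of 91 stromal genes tested, 19 were called higher (against 1.20% of all genes) and none lower. All 19 had a change above 0 in WT and 8 were called there. The change was broad and small in the collagens, which give connective tissue its tensile strength. Of 17 tested, 16 had a change above 0 (median 0.39). An adjusted p of at most 0.05 was reached by 7, all higher (against 3.20% of all genes), and 2 passed the fold threshold. *Col1a1* was at 11.07 to 11.99 (median 11.55) in CONT and 11.85 to 13.11 (median 12.57) with PCN, with 1 PCN array inside the CONT range (1.04, SE 0.23, adjusted p 0.0151; chromosome 11, 94813115 to 94813174). The other 2 *Col1a1* probes changed by 0.83 and 1.00 and were called too. *Col3a1* changed by 0.81 (adjusted p 0.0256), while its other probes, at 0.39 to 0.44, were not called. *Col1a2*, whose product joins that of *Col1a1* in the type I triple helix, changed by 0.62 (adjusted p 0.0692) and *Col6a1* by 0.55 (adjusted p 0.0156). In WT no collagen was called and the list median was 0.19.

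Matrix proteins and the enzymes that process them had 7 of 34 calls higher, 32 changes above 0 and a median of 0.42. *Fbln2*, a basement membrane protein, was at 8.91 to 9.83 in CONT and 9.87 to 10.92 with PCN, without overlap (0.93, adjusted p 0.00732). *Lox*, which cross-links collagen and elastin, was at 6.18 to 6.76 and 6.84 to 8.01, also without overlap (0.92, adjusted p 0.013). *Thbs1*, thrombospondin-1, an activator of latent TGF-β, rose by 0.87 (adjusted p 0.00554). *Timp1*, an inhibitor of matrix metalloproteinases, went from 8.999 to 9.89 in CONT to 9.93 to 11.54 with PCN (1.13, adjusted p 0.0441), again with replicates 1 and 5 highest. The fibroblast list had 6 of 20 calls higher. *Vim*, the intermediate filament of mesenchymal cells, did not overlap between groups, with CONT at 12.05 to 12.56 (median 12.17) and PCN at 12.998 to 13.48 (median 13.13; chromosome 2, 13504232 to 13504291). It rose by 0.92 (SE 0.10, adjusted p 3.85e-05) and by 0.69 in WT (adjusted p 0.000707). *Has1*, a hyaluronan synthase, was at 5.02 to 5.51 and 6.12 to 6.75 (1.13, adjusted p 0.000105), also without overlap, and passed the background filter through PCN groups alone. *Pi16* and *Cd34*, both present on adventitial fibroblasts, rose by 0.91 (adjusted p 0.0349) and 0.67 (adjusted p 0.00493).

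Smooth muscle genes had 4 of 20 calls higher and a median of 0.20. *Cnn1*, *Cald1*, *Actg2* and *Tagln*, which bind or form the actin filaments of the contractile apparatus, changed by 0.67, 0.65, 0.67 and 0.59 (adjusted p 0.0153, 0.0102, 0.023 and 0.0181), and in none were the groups apart. *Acta2* (0.14, adjusted p 0.501) and *Myh11* (0.27, adjusted p 0.306), the actin and myosin heavy chain that define smooth muscle, did not pass the test. Without replicate 5 alone no smooth muscle gene was called. Without replicates 1 and 5 the calls were 3 of 34 matrix genes, 3 of 20 fibroblast genes and 0 collagens, with list medians of 0.36, 0.30 and 0.30.

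Few markers of the other cells were called, though some lists shifted as much as the myeloid and stromal ones. The B cell and Peyer patch genes had a median change of 0.44 (0 of 9 called) and the T and cytotoxic lymphocyte genes one of -0.34 (0 of 13 called), against 0.26 and -0.09 without replicates 1 and 5. The epithelial score was lower on all 6 PCN arrays (-0.20 to -0.07) than on all CONT arrays (-0.07 to 0.11), with a median change of -0.10 and 0 of 14 genes called. The endothelial score was -0.25 to 0.28 in CONT and 0.01 to 0.32 with PCN (0 of 13 called), and the mesothelial score was -0.30 to 0.25 and -0.20 to 0.50, with a median change of 0.24 and *Msln* called (0.74, adjusted p 0.0397) of 7 tested. Of the 11 Paneth and goblet cell genes *Agr2* (-0.86, adjusted p 0.0303) and *Fcgbp* (-0.63, adjusted p 0.00549) fell. What part these shifts had in the myeloid and stromal changes was not tested.

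**Figure D3:**
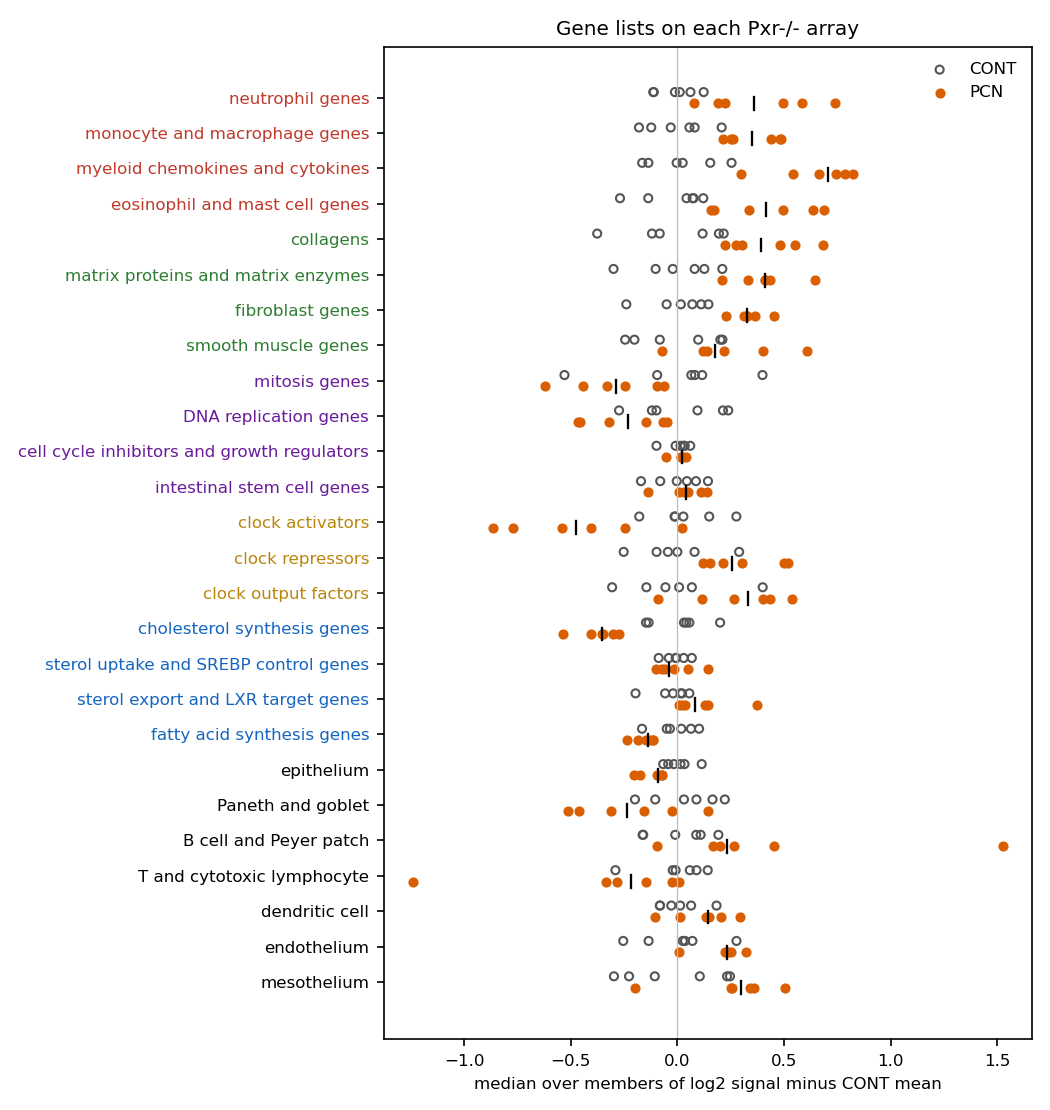
List scores on each *Pxr*-/- array, CONT as open grey and PCN as orange circles, with a bar at the PCN median (6 arrays per group); the horizontal axis is the median over the members of a list of the log2 signal minus the CONT mean. The scores of macrophage genes, chemokines, collagens, fibroblast genes and cholesterol synthesis genes do not overlap between groups, whereas 1 PCN array lies at 1.52 for B cell genes and 1 at -1.24 for T cell genes.

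Proliferation genes did not pass the test as called genes. Of 106 tested, none was called in either direction in *Pxr*-/- mice. By limma 6 of the 106 had an adjusted p of at most 0.05 with a fold below 1.5, all of them lower. Genes lower at this adjusted p, whatever the fold, made up 1.79% of all genes tested. The direction was shared nevertheless. All 32 mitosis genes had a change under 0, with a median of -0.31 (-0.37 in batch 1 and -0.29 in batch 2), and 33 of 35 DNA replication genes did, with a median of -0.23. In WT the medians were -0.10 and -0.22. The mitosis score was -0.53 to 0.40 in CONT and -0.62 to -0.06 with PCN, so the groups overlapped, CONT replicate 3 being the lowest of its group and PCN replicate 5 the lowest of all.

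*Ube2c*, the ubiquitin-conjugating enzyme of the anaphase-promoting complex, was at 11.35 to 12.28 in CONT and 11.08 to 11.75 with PCN (-0.45, SE 0.13, adjusted p 0.0495). *Top2a*, which untangles sister chromatids, was at 11.33 to 12.34 and 10.83 to 11.79 (-0.47, adjusted p 0.102). *Cdk1*, the kinase that drives mitosis, was at 7.68 to 9.34 and 7.48 to 9.08 (-0.42, adjusted p 0.332), and *Mki67* changed by -0.29 (adjusted p 0.131). Among replication genes *Mcm5*, a subunit of the replicative helicase, changed by -0.48 (adjusted p 0.0737) and *Pcna*, the sliding clamp, by -0.14 (adjusted p 0.548). *Ccnd1* and *Ccnd2*, the cyclins that pass growth signals to the cell cycle, changed by -0.57 (adjusted p 0.0471) and -0.42 (adjusted p 0.0292), both below the fold threshold, while the inhibitor *Cdkn1a* was at -0.06 (adjusted p 0.8). Intestinal stem cell genes (19 tested) had no call and a median of 0.03. *Lgr5*, their defining receptor, changed by 0.26 (adjusted p 0.475) and the stem cell gene *Smoc2* by 0.35 (adjusted p 0.0505). Without replicates 1 and 5 the mitosis and replication medians were -0.20 and -0.17.

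Many mitosis genes are transcribed through a cell cycle homology region (CHR) together with CCAAT boxes. Windows of 300 bases, from 250 before to 50 after the start (RefSeq, GRCm38.p6, gene strand), were present for 26 of the 32 mitosis genes. The CHR letters TTTGAA were found on either strand in 20 (76.9%), against 20.2% of 27025 genes, and CCAAT in 21 (80.8%) against 41.1%. The windows of *Top2a* (chr11:99024140-99024439, minus strand) and *Ube2c* (chr2:164769679-164769978, plus strand) are shown because these genes had the largest changes of the list. Capitals mark both motifs on either strand.
Top2a: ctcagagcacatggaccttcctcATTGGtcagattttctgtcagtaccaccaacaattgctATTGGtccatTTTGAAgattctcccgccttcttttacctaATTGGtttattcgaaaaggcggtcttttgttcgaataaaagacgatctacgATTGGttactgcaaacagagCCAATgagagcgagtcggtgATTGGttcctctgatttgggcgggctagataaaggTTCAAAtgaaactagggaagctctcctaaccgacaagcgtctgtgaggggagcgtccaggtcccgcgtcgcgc
Ube2c: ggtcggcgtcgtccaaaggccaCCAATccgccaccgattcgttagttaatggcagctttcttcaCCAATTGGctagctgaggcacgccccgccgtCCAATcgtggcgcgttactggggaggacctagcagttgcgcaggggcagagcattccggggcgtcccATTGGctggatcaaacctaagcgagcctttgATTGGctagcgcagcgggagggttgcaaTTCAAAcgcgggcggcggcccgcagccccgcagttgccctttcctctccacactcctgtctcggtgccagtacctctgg
Both windows hold the CHR letters and several CCAAT boxes. A match describes the letters, not a site in use.

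Clock genes changed at the one time of day that was sampled. The molecular clock is a loop in which BMAL1 (gene *Arntl*) and CLOCK switch on the *Per*, *Cry* and *Nr1d* genes, whose products then repress them, and the PAR bZIP factors DBP, TEF and HLF carry the rhythm to other genes. Of 23 clock genes tested, *Arntl* was called lower and *Per3*, *Tef* and *Tspan4* were called higher, and all 4 had the same direction in WT. *Arntl* was at 8.25 to 9.15 (median 8.91) in CONT and 7.32 to 8.004 (median 7.61) with PCN, without overlap (chromosome 7, 120456978 to 120457037). The change was -1.13 (SE 0.23, adjusted p 0.0093, a ratio of 0.456) and held in batch 1 (-1.46) and batch 2 (-0.81). The other 2 probes of the gene changed by -1.23 and -0.88 and were called as well, and the call remained without replicates 1 and 5 (-1.21, adjusted p 0.0364). In WT it changed by -0.19 (adjusted p 0.829). The difference between the genotypes had an unadjusted p of 0.00972 and an adjusted p of 0.894.

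The other activators did not pass the test, *Clock* being at 0.22 (adjusted p 0.244) and *Npas2* at -0.41 (adjusted p 0.225). Among 12 repressors 9 had a change above 0. *Per3* was at 8.85 to 9.39 (median 9.01) in CONT and 9.52 to 10.22 (median 9.80) with PCN, again without overlap (0.77, adjusted p 0.022; chromosome 4, 150385608 to 150385667). *Nr1d2*, which codes for the heme-sensing repressor REV-ERBβ, was at 10.02 to 10.41 and 10.63 to 10.96 (0.57, adjusted p 0.0151), just below the fold threshold. *Ciart* (0.77, adjusted p 0.0622) and *Per2* (0.57, adjusted p 0.271) overlapped between groups, and in both PCN replicate 1 was the lowest PCN array. *Per1* (0.16), *Nr1d1* (-0.14) and *Cry1* (-0.26) had adjusted p of 0.347 to 0.798. Among outputs *Tef* was at 13.48 to 14.19 in CONT and 14.24 to 14.81 with PCN (0.71, adjusted p 0.0217; chromosome 15, 81657221 to 81657280), while *Dbp* changed by 0.60 (adjusted p 0.144). *Tspan4*, a tetraspanin on the list of clock outputs, was at 11.12 to 11.85 and 12.09 to 12.53 (0.86, SE 0.13, adjusted p 0.00101; chromosome 7, 148679215 to 148679274), and it was the one clock gene called in WT (0.60, adjusted p 0.0251). Without replicates 1 and 5 *Arntl* and *Tspan4* were called, and *Per3* (0.68, adjusted p 0.159) and *Tef* (0.63, adjusted p 0.154) were not.

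**Figure D4:**
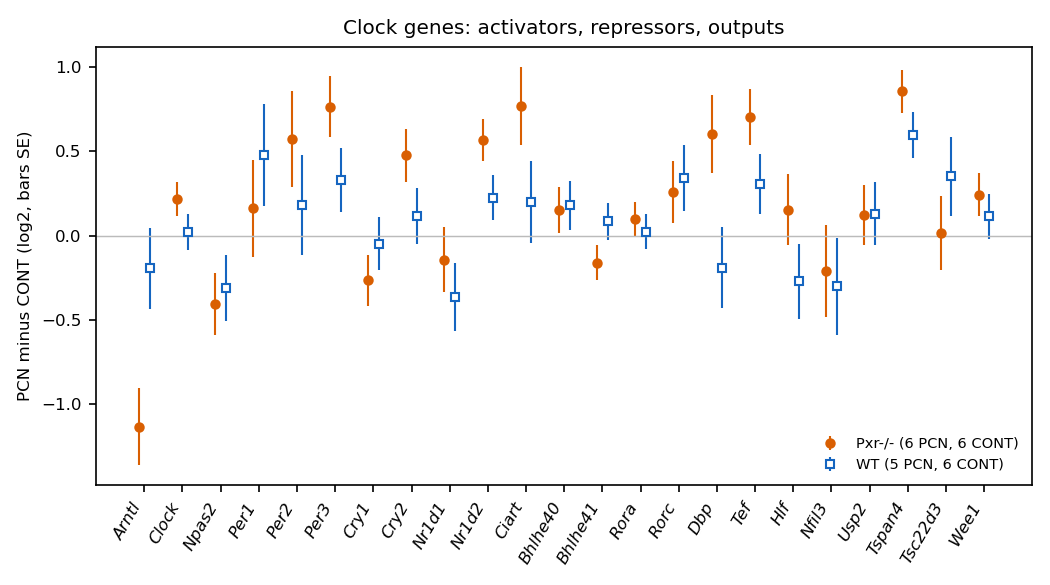
Change with PCN (PCN minus CONT, log2, bars SE from the fit) of 23 clock genes in *Pxr*-/- (orange circles, 6 against 6 arrays) and WT ileum (open blue squares, 5 against 6). *Arntl* lies at -1.13 in *Pxr*-/- mice and -0.19 in WT, and *Per3*, *Nr1d2*, *Tef* and *Tspan4* lie above 0 in both.

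Clock factors act through short DNA elements, the E-box (CACGTG) bound by BMAL1 and CLOCK, the D-box (TTATGNAA) bound by DBP, TEF and HLF, and the RORE (TAGGTCA) bound by ROR and REV-ERB proteins. Windows were present for 19 of the 23 clock genes. On either strand they held an E-box in 6 (31.6%, against 8.09% of all genes), a D-box in 2 (10.5%, against 3.99%) and a RORE in 2 (10.5%, against 2.97%). *Arntl* and *Tspan4* had 2 windows each, and the one with the most matches was taken for display. The windows of 3 called genes are shown, with these letters in capitals: *Arntl* (chr7:113207261-113207560, plus strand), *Tspan4* (chr7:141476130-141476429, plus strand) and *Per3* (chr4:151044616-151044915, minus strand).
Arntl: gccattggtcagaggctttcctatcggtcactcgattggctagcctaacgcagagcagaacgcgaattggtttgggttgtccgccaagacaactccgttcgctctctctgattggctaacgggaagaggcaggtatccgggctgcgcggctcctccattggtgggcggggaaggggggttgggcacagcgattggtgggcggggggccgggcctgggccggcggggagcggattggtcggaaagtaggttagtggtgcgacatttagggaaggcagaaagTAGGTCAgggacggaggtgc
Tspan4: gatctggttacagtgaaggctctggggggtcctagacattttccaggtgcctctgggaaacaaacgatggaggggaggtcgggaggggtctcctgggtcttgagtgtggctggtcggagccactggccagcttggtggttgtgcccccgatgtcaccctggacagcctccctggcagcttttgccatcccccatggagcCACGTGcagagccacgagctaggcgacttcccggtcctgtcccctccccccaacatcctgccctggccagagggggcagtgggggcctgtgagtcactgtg
Per3: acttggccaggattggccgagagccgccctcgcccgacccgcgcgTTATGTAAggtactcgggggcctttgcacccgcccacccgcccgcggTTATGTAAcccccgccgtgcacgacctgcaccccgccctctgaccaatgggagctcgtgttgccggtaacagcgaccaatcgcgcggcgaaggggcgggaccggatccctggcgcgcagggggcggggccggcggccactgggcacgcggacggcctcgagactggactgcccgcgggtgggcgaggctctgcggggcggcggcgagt
In the windows shown, the gene that fell holds a RORE downstream of its start, *Tspan4* an E-box, and *Per3* a pair of D-boxes, each before its start.

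Cholesterol synthesis genes were lower with PCN in *Pxr*-/- mice as a group, by small steps. The pathway builds sterols from acetyl-CoA through mevalonate, isoprenoids and squalene, and the factor SREBP2 raises its genes when membranes are short of cholesterol. All 19 genes tested had a change under 0, between -0.62 and -0.09, with a median of -0.35 (-0.31 in batch 1 and -0.41 in batch 2). Of these, 8 had an adjusted p of at most 0.05 (against 1.79% of all genes, counting those lower) and 1, *Idi1*, passed the fold threshold. In 5 genes all 6 PCN arrays lay below all 6 CONT arrays (1.27% of all genes). The list score was -0.54 to -0.27 with PCN and -0.15 to 0.20 in CONT, without overlap.

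*Idi1*, the isomerase that makes the building block for prenyl chains, was at 12.48 to 12.98 (median 12.59) in CONT and 11.60 to 12.31 (median 12.05) with PCN (-0.62, SE 0.13, adjusted p 0.013; chromosome 13, 8891524 to 8891583). Upstream of it, *Hmgcs1* was at 15.09 to 15.59 and 14.82 to 15.17 (-0.41, adjusted p 0.0236), and *Mvd* changed by -0.58 (adjusted p 0.0448). Downstream, *Sqle*, the squalene epoxidase, was at 14.29 to 14.67 in CONT and 13.80 to 14.14 with PCN, without overlap (-0.46, SE 0.09, adjusted p 0.00796). *Hsd17b7* was at 12.08 to 12.49 and 11.38 to 11.96 (-0.54, adjusted p 0.0188). *Fdft1* (-0.35, adjusted p 0.0535), *Lss* (-0.52, adjusted p 0.105) and *Cyp51* (-0.33, adjusted p 0.0829) did not pass the test.

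In WT the same genes had the opposite sign for the most part, with 16 of 19 changes above 0 and a median of 0.16, and none called. The effects of PCN differed between genotypes at an unadjusted p of at most 0.05 in 16 of the 19 genes, against 5.06% of all genes, and by a median of -0.52. No gene of the list passed the adjusted test of this difference, the lowest adjusted p being 0.118. For *Idi1* the unadjusted p of the difference was 0.000567 (adjusted p 0.249). Over all 19 genes the median in *Pxr*-/- mice was -0.38 without replicates 1 and 5, and *Idi1* was then at -0.55 (adjusted p 0.0892) and *Sqle* at -0.44 (adjusted p 0.0601).

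Genes of sterol uptake and of SREBP control did not move together. None of the 11 tested was called, and their median was -0.07. *Insig1*, which holds SREBP in the endoplasmic reticulum, changed by -0.21 (adjusted p 0.519), and *Insig2* by -0.47 (adjusted p 0.0416). *Scarb1*, the HDL receptor, was at 8.32 to 8.61 and 8.83 to 9.13, the tightest separation among sterol genes (0.51, SE 0.08, adjusted p 0.00101), though below the fold threshold. Of 13 genes of sterol export and targets of the oxysterol receptor LXR none was called, and *Abca1*, the exporter of cholesterol to HDL, rose by 0.49 (adjusted p 0.0291, below the fold threshold) against 0.85 in WT (adjusted p 0.000665).

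Fatty acid synthesis genes (14 tested) had no call, 11 changes under 0 and a median of -0.15. *Fasn*, the fatty acid synthase, was at 13.31 to 13.68 in CONT and 12.81 to 13.23 with PCN (-0.43, adjusted p 0.0186). The desaturases *Scd1* (-0.97, adjusted p 0.115) and *Scd2* (-0.55, adjusted p 0.0859) did not pass the test. *Elovl6*, an elongase of fatty acids, was the 1 gene of all 362 in the 5 groups whose effects differed between genotypes by the adjusted test. It changed by -0.28 in *Pxr*-/- mice (adjusted p 0.119) and 0.47 in WT (adjusted p 0.0215), a difference of -0.75 (adjusted p 0.0407).

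**Figure D5:**
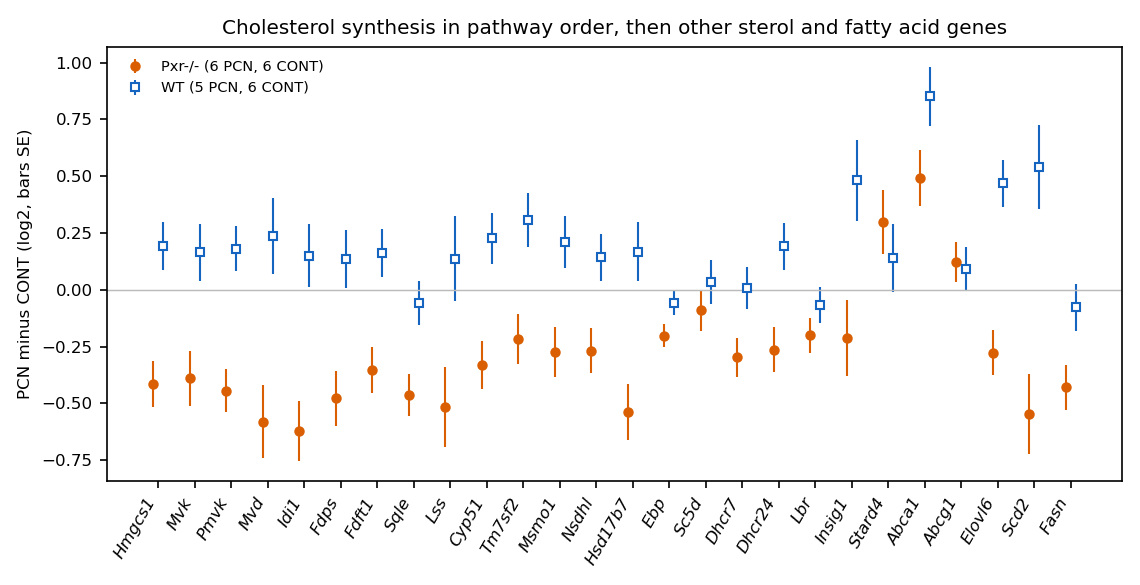
Change with PCN (PCN minus CONT, log2, bars SE from the fit) of 19 cholesterol synthesis genes in the order of the pathway and of 7 other sterol and fatty acid genes, in *Pxr*-/- (orange circles, 6 against 6 arrays) and WT ileum (open blue squares, 5 against 6). All 19 orange circles of the pathway lie under 0, and 16 of the blue squares lie above it.

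The SREBP site used for the search (TCACNCCAC, either strand) was found in 1 of the 15 cholesterol synthesis windows present (*Hmgcs1*, 6.67%, against 1.44% of all genes) and in 0 of 8 windows of the uptake and control genes. The window of *Idi1* (chr13:8885356-8885655, plus strand), the called gene, is shown beside that of *Hmgcs1* (chr13:119690101-119690400, plus strand), which was picked because it holds the match, in capitals.
Idi1: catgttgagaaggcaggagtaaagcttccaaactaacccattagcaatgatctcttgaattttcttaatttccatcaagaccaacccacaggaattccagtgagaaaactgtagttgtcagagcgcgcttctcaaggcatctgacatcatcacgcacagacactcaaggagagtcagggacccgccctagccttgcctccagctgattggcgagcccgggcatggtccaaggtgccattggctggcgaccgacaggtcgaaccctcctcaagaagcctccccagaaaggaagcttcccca
Hmgcs1: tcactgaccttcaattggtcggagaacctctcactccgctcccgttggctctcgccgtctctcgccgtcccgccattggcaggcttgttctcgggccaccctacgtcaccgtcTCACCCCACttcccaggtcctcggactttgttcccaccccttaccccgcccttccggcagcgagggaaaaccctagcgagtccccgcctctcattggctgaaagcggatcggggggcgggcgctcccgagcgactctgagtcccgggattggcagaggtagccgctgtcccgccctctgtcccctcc
The absence of these letters from a window says nothing on binding of the factor.

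Beyond these groups, *Krt14*, a keratin of basal cells of stratified epithelia, rose most among the rest. It was at 6.56 to 8.74 (median 7.44) in CONT and 9.22 to 10.97 (median 9.96) with PCN, without overlap (2.53, SE 0.29, adjusted p 5.4e-05), and rose by 2.81 in WT (adjusted p 1.38e-05). *Chrdl2*, a secreted antagonist of bone morphogenetic proteins, was at 6.90 to 8.13 and 8.81 to 10.16 (2.17, adjusted p 1.74e-05), and the imprinted RNA *H19* at 7.09 to 8.22 and 8.99 to 10.15 (2.01, adjusted p 0.000471). *Serpinb2*, an inhibitor of plasminogen activators, was not well above background on any *Pxr*-/- CONT array and at least 3.42-fold higher with PCN (adjusted p 7.25e-05). Among the *Pxr*-/- arrays it met the background filter through PCN alone, which favours a rise. All 4 were called in WT and kept the call in *Pxr*-/- mice without replicates 1 and 5.

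The largest decreases were those of *B3gnt7* (-1.78, adjusted p 0.00384), a glycosyltransferase, *Plet1* (-1.66, adjusted p 0.039) and the EGF receptor ligands *Hbegf* (-1.40, adjusted p 0.0181) and *Areg* (-1.31, adjusted p 0.0438). *Plet1* was at -1.08 without replicates 1 and 5 (adjusted p 0.335) and lost the call. *Hbegf* was at 9.64 to 11.71 in CONT and 8.86 to 9.61 with PCN, the groups lying apart by a narrow gap. *Areg* was at 8.24 to 9.80 and 6.95 to 8.80, with overlap, and changed by 0.37 in WT (adjusted p 0.775; difference between genotypes, unadjusted p 0.00381, adjusted p 0.702). *Acta1*, the actin of skeletal muscle, was at 9.76 to 11.70 and 9.19 to 9.73 (-1.22, adjusted p 0.0144) and *Myot*, a protein of its sarcomeres, at 5.34 to 8.03 and 4.98 to 6.20 (-1.15, adjusted p 0.0467), with 3 of 6 PCN arrays above background. *Chil1* (-1.24, adjusted p 0.0346), *Bhmt*, which regenerates methionine (-1.25, adjusted p 0.0495), and the unnamed transcript *Gm30692* (-1.30, adjusted p 0.019) complete the 10 largest decreases with *Retnla*. Of these 10, only *Gm30692* kept its call without replicates 1 and 5 (-1.57, adjusted p 0.0267), and only *Retnla* and *Bhmt* were called in WT.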

How the data were processed

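Ileal RNA of 23 mice was hybridized to single-colour Agilent arrays. The authors labelled cRNA from 150 ng of total RNA with Cy3 and scanned it with Agilent Feature Extraction 10.10.1.1 (submitters' processing notes). Per the file headers these values are an intensity, the median brightness of a spot on a linear scale, with no background subtracted. The authors also deposited log2 values for 37161 probes, filtered, corrected for wash batch and normalized with CrossNorm by the study's methods, and each column correlated with the log2 signal of its own array at a Spearman coefficient of 0.9995 to 0.9997, across probes. These values served as an alternative.

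Control spots and spots marked as outliers were left out, spots of a probe were averaged on the log2 scale (62976 spots, 59305 not controls, 56605 probes), and the 23 arrays were quantile normalized. Probes entered the test if 50% or more of the arrays in 1 or more groups had them well above background in the scanner output (37591 probes, 6705 of them without a symbol). Symbols were taken from RefSeq, with 32994 probes matched by accession, 10224 by name and 520 by an older name. Positions of probes were read from the array's annotation (mm9). Their place in exons or untranslated regions was not analysed here.

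Groups came from the labels. limma 3.58.1 (R 4.3.3) was fitted with group and wash batch to all 23 arrays, 2-sided, with moderated tests (eBayes) and Benjamini-Hochberg adjustment over all probes. The contrasts were PCN minus CONT in *Pxr*-/- mice, the same in WT, and their difference. The first 2 share no array. Each gene is represented by the tested probe of highest mean signal, and 17727 genes were tested. The number of arrays limits the precision (median SE 0.0961 on the log2 scale). The 34 missing values over the tested probes were left missing. "At least" folds compare the mean of the brighter group with, on each dim array, the larger of the probe's value and that array's floor, its dimmest probe well above background.

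Gene lists were described by counts and medians, with no test of a list. The text names the 10 called genes that rose most and the 10 that fell most, up to 4 members per list (called members first, then the largest change), a fixed set of general markers and clock and sterol genes, and members with a called difference between genotypes. The comparison, its members and the lists were chosen with earlier results of these data known. Some members of the sterol lists are not reported here and were left out of the lists. Promoter windows came from RefSeq (GRCm38.p6), 250 bases before to 50 after the start, and were searched on both strands.

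Tested on simulated data made from these arrays for the *Pxr*-/- comparison (37591 probes), the fit recovered 97% of 100 probes changed by 1 on the log2 scale and 98% of 100 changed by 2, with 2 unchanged probes called. The simulated noise was independent between probes and had the same spread in all groups, so arrays that stood apart over many genes were not imitated. Recovery of changes below 1 was not measured, and the median absolute change of called genes was 0.81. The alternatives were another background correction, scaling, filter, probe rule, fold threshold or block, and leaving out arrays.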

Additional observations from a re-analysis of the deposited data

Results flagged for a closer look

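Of 242 groups of 6 values (121 named genes in 2 groups), 12 had 1 array far from the others by Dixon's test, which flags about 1 group in 20 by chance. Among called genes, *Gm30692* was highest on PCN replicate 5 (7.3266, next value 6.5988), *Bhmt* lowest on PCN replicate 5 (6.9134, next 8.056) and *Mcpt2* highest on PCN replicate 1 (6.7732, next 6.3764), all as log2 signal. Clock genes stood out on the same arrays, *Ciart* and *Per2* being lowest on PCN replicate 1 (6.947, next 7.4068, and 10.2669, next 11.0068) and *Bhlhe40* highest on PCN replicate 5 (10.6746, next 10.308). Among sterol and fatty acid genes *Scd2* was highest on PCN replicate 5 (13.712, next 13.3112), *Abcg8* highest on CONT replicate 4 (12.3958, next 11.6368) and *Elovl6* lowest on CONT replicate 6 (11.3889, next 11.7257). The remaining ones were *Csf1r*, highest on CONT replicate 6 (13.0029, next 12.6717), *Cd44*, highest on PCN replicate 4 (10.0717, next 9.611), and *Nr1i2*, lowest on PCN replicate 6 (11.3843, next 11.7294).

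The effects of PCN differed between the genotypes, by the test of the difference in limma, for *Cyp3a11* (-3.5844 on the log2 scale, *Pxr*-/- minus WT), *Cyp2b10* (-3.8906) and *Elovl6* (-0.7465).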

How the results depend on the processing

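Of 49 named genes that were called, 27 kept the call under each alternative in processing and with each single *Pxr*-/- array left out, 17 lost it under at least 1 alternative other than leaving out an array, 19 with at least 1 array left out, and none reversed. Of the 72 named genes that were not called, 16 gained a call under at least 1 of these settings. The 13 alternatives that left out no *Pxr*-/- array gave 202 (the 12 *Pxr*-/- arrays alone) to 336 genes (scanner's processed signal scaled to the 75th percentile) with the fold threshold, and 886 without it, 568 higher and 318 lower. With single arrays left out 168 (without PCN replicate 5) to 304 genes (without PCN replicate 6) were called, 139 to 230 higher and 23 (without PCN replicate 1) to 78 lower (without PCN replicate 6). Without PCN replicates 1 and 5 together, which was chosen after seeing the data, 99 were called, 91 higher and 8 lower, and 16 of the 49 named genes kept the call. The difference between genotypes called 10 genes with the slide as a fixed block. With the processed signal the list medians were 0.58 for neutrophil genes, 1.25 for eosinophil and mast cell genes and -0.793 for clock activators. The second of these was 0.703 when probes had to be above background on all arrays of a group. The median of cell cycle inhibitors and growth regulators was -0.0663 with arrays centred on their median and -0.0582 to 0.0414 with single arrays left out. The cause of these shifts was not tested.

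Small changes turned their sign. *Cyp3a11* was at 0.243 with the slide as a fixed block. Without PCN replicates 1 and 5 *Nr1i2* was at 0.0125 and *Cdkn1a* at 0.0733. With single arrays left out the ranges were -0.0928 to 0.119 for *Nr1i2*, -0.167 to 0.0257 for *Cyp3a11*, -0.1000 to 0.00334 for *Cdkn1a*, -0.0327 to 0.284 for *Per1* and -0.211 to 0.0186 for *Nr1d1*.

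Replicate numbers did not pair the samples. Over the deviations from the group means, same-numbered arrays correlated at -0.199 to 0.434, 1 of 6 pairs over 0.1 and 1 array best with its own number. With a replicate block 225 genes were called, 219 of them among the 261.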

Other observations

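Further genes among the 261 calls are given here, picked after their values were seen, with no list and no test of a group. Of genes known from stratified or keratinizing epithelium, those that rose beside *Krt14* included *Slurp1* (1.41), *Dmkn* (1.16), *Lgals7* (1.12), *Anxa8* (1.08), *Sbsn* (0.92) and *Ppl* (0.67), all on the log2 scale, while *Sfn* (-0.70) and *Cysrt1* (-0.91) fell. The beta-defensins *Defb40* (1.84), *Defb37* (1.65), *Defb1* (1.55) and *Defb39* (1.47), antimicrobial peptides, rose too.

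Genes known from the acute phase or from metal and heme handling were also among the calls. *Mt2* and *Mt1*, the metallothioneins, rose by 1.84 and 1.25, *Hmox1*, the inducible heme oxygenase, by 1.26, *Serpina3n* by 1.61, *Saa3* by 1.09 and *Lcn2*, which binds bacterial siderophores, by 0.76. The cell cycle factors *E2f2* (-0.71) and *Mybl2* (-0.74) fell, although neither stood on the lists of proliferation genes used above.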
